A study of Mus musculus with 2 samples.

Results

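The cells described here are the low pigment B16 F10 cells that the authors' cell table places in cluster 1. They were chosen by 2 columns of that table, the cluster number and the sort, and there are 1023 of them among 1900 low pigment cells and 4036 cells in all. The cluster numbers were made by the authors from the expression of the same cells, so every difference in RNA between these cells and the rest is a description with no test. Cluster 1 also held 48 cells of the high pigment library, which are not among the members.

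B16 F10 is a melanin-making melanoma line of the mouse, and the labels call its cells melanocytes. The cells grew for 7 days from a sparse seeding of 100 cells per cm2 in high-glucose medium with 10% serum, with no drug or genetic change given in the labels. A flow cytometer then split the trypsinised culture by side scatter, the authors' measure of pigment, into a low and a high pigment fraction. Each fraction gave 1 droplet library of RNA 3′ ends in which every captured molecule carries a unique molecular identifier (UMI).

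Because there is 1 library per sort, the sort and its library cannot be told apart, and no difference has a replicate check. Counts were summed over the cells of a group and scaled to CPM, the UMIs of a gene per 1000000 UMIs of the group. The intervals printed are 95% intervals that cover counting error only, and leave out the spread between cells, cultures and library preparations. Many ratios within single phases are printed without an interval and rest on fewer UMIs. Whether separate cultures were sorted is not stated in the labels.

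In an unperturbed culture, cells in G1 have not yet begun to copy their DNA, replication genes are transcribed mainly towards S phase, and mitotic genes in G2 and M. Immediate early genes such as Jun, Fos and Egr1 are transcribed within minutes of growth factor signals, stress or detachment of cells, from promoters that need no newly made protein, and most of their RNAs decay quickly. Jun and Fos proteins pair into the AP-1 transcription factor, Egr1 is a zinc finger transcription factor, and Dusp1 is a phosphatase that switches MAP kinases off again.

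The cells of cluster 1 were set against 2 other groups of cells. The first was the remaining 877 low pigment cells of the same library, of which 822 were in cluster 2, 36 in cluster 0 and 19 in cluster 3. The second was the 523 high pigment cells of cluster 3, which the authors' table also calls mostly G1. Both comparisons use the same cluster 1 cells, so they are not independent, and their values are given side by side.

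The cluster 1 cells held 15502793 UMIs in sum, and a single cell had from 7875 to 40264 UMIs (median 14204) and a median of 3916 genes. The other low pigment cells had 16934401 UMIs in sum, at medians of 18736 UMIs and 4581 genes per cell. The high pigment cluster 3 cells were the shallowest, with 5368476 UMIs in sum, at a median of 9606 per cell, close to the lowest value in the authors' table (7514), and 3083 genes. Median shares of mitochondrial UMIs were 5.78%, 5.45% and 5.84%. The detection limit, set at a sum of 3 UMIs, came to 0.194 CPM in cluster 1, 0.177 CPM in the other low pigment cells and 0.559 CPM in the high pigment cells. No barcode of the cell table was shared between the libraries, and 2 of the 5818 barcodes of the matrix were.

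The label of the cells as mostly G1 describes the phase calls of the authors' table and is not separate evidence. The authors' table calls 719 of the 1023 cells G1 (70.3%, exact Clopper-Pearson interval 67.4–73.1), 193 S (18.9%, 16.5–21.4) and 111 G2M (10.9%, 9.01–12.9). Of the other low pigment cells, 30 were called G1 (3.42%, 2.32–4.85), 512 S (58.4%) and 335 G2M (38.2%). Cluster 1 thus held 719 of the 749 low pigment cells called G1 (96.0%), but also 193 of the 705 called S (27.4%) and 111 of the 446 called G2M (24.9%). In the high pigment cluster 3, 466 of 523 cells were called G1 (89.1%, 86.1–91.6), 3 were called S and 54 G2M. Phases called anew after every cell was thinned to 7500 UMIs placed 627 cluster 1 cells in G1 (61.3%, 58.2–64.3), 26 of the other low pigment cells (2.96%) and 386 of the high pigment cells (73.8%). Both sets of calls rest on cycle genes read in the same cells, and the share of free RNA in the droplets was not estimated.

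**Figure D1:**
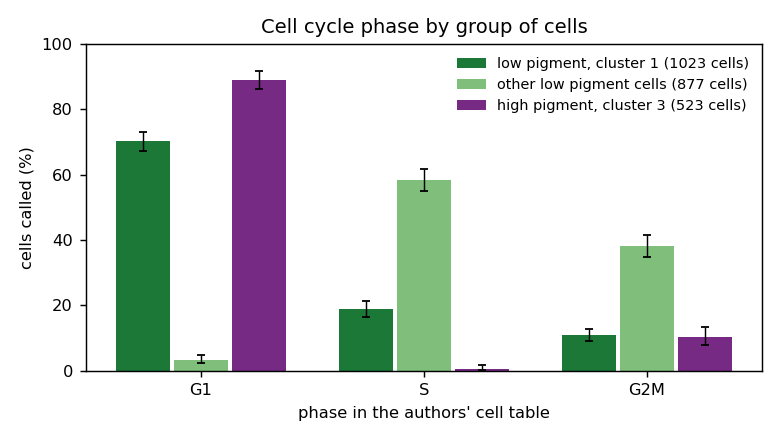
Share of cells in each cell cycle phase of the authors' cell table (y axis, percent of cells) for the 1023 low pigment cluster 1 cells, the 877 other low pigment cells and the 523 high pigment cluster 3 cells. Bars are shares with exact 95% binomial intervals. Cluster 1 is 70.3% G1 and still holds 193 S-called and 111 G2M-called cells, while 3.42% of the other low pigment cells are called G1.

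The cells were of the melanocyte lineage by their markers. All 7 melanocyte markers were present, among them Mitf at 249 CPM, Sox10 at 124 CPM and Dct at 6180 CPM. Fibroblast, keratinocyte and leukocyte markers were at or near 0, Itgam at 2.39 CPM being the highest of the leukocyte list and Ptprc, Cd3e and Adgre1 having 0 UMIs. Pecam1, fixed as an endothelial marker, had 21.3 CPM in cluster 1, 23.4 CPM in the other low pigment cells and 3.91 CPM in the high pigment cells, but Cdh5, Kdr and Emcn had 0 UMIs in cluster 1 and Tek had 0.129 CPM. Of the Schwann cell markers, which neural crest cells share in part, S100b and Mbp had 181 and 173 CPM.

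The 4 genes given as markers of these cells, Jun, Fos, Egr1 and Dusp1, separated cluster 1 from the high pigment cells and, over all phases, hardly from the other cells of its own library. Jun (chromosome 4, 95049034 to 95052222, build GRCm38) had 1006 CPM in cluster 1, 692 CPM in the other low pigment cells and 191 CPM in the high pigment cells. The ratio of cluster 1 to the other low pigment cells was 1.45 (1.42–1.49), and to the high pigment cells 5.26 (4.93–5.60). Jun was the marker with the largest ratio inside the low pigment library when cells of all phases were summed.

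Fos (chromosome 12, 85473890 to 85477273) had 148, 126 and 27.4 CPM in the same order of groups, ratios of 1.18 and 5.42 (4.59–6.45). Dusp1 (chromosome 17, 26505590 to 26562128) had 181, 158 and 27.2 CPM, ratios of 1.14 (1.08–1.20) and 6.65 (5.63–7.90). Egr1 was lower within the low pigment library when cells of all phases were summed, with 93.3 CPM in cluster 1 against 108 CPM in the other cells (ratio 0.865, 0.806–0.927), and had 15.6 CPM in the high pigment cells (ratio 5.97, 4.79–7.52). At the size limit used for members of gene lists, 0.32 on the log2 scale, only Jun of the 4 markers was higher in cluster 1 than in the other low pigment cells, where 7.86% of all measured genes were, and all 4 were higher than in the high pigment cells, where 19.3% of genes were. Of the 30 other low pigment cells called G1, 3 were in cluster 2 and the rest in clusters 0 and 3. Those clusters held 1520 and 523 of the high pigment cells, so this is not a comparison with cluster 2 at equal phase. Against these 30 cells, with 472048 UMIs in sum, the G1-called cluster 1 cells had a Fos ratio of 2.75. Egr1 turned direction to a ratio of 1.91. With the G1 calls made anew, which left 26 comparison cells, the ratios were 4.33 for Fos and 1.595 for Egr1. In G2M-called cells of the library the Egr1 ratio was 1.05. Ratios to the high pigment cells also changed with the phase chosen. Fos had 2.88 among G2M-called cells and 8.91 among cells called G1 anew. Egr1 had 17.6 among G2M-called cells, of which the high pigment cluster held 54. Those 54 cells held 527386 UMIs in sum, and the detection limit there was 5.69 CPM. Their Egr1 level lay near that limit, so the Egr1 ratio of 17.6 is uncertain and does not show a dependence on phase.

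The same order was seen in single cells thinned to 7500 UMIs. Jun was detected in 98.0% of cluster 1 cells (97.0–98.8), in 96.9% of the other low pigment cells and in 60.0% of the high pigment cells, and its median was 7, 5 and 1 UMIs per cell. Fos was detected in 55.9%, 49.8% and 13.6% of cells, Egr1 in 39.3%, 44.0% and 8.60%, and Dusp1 in 66.0%, 63.4% and 14.1%. Without thinning, the cluster 1 shares were 99.1%, 72.2%, 54.7% and 83.6% for Jun, Fos, Egr1 and Dusp1, at the median depths given above. Of the 1023 cells, 172 had a UMI of all 4 markers, 407 of 3 and 6 of none, while 164 of the 523 high pigment cells had none. These data hold no cell type that should lack the 4 genes, so a background share from free RNA could not be read from one.

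Promoter sequences are shown for the marker Dusp1, for Btg2, the gene with the largest ratio to high pigment cluster 3, and for Hmgcs1, an early enzyme of cholesterol synthesis whose list also separated the libraries. Each is the 250 bases before the RefSeq gene start on build GRCm38.p6, 5′ to 3′ on the strand of the gene. Capitals mark a cAMP response element (TGACGTCA, the site bound by CREB and ATF factors) in Dusp1 and Btg2 and a sterol element (TCACNCCAC) in Hmgcs1. The windows are chr17:26508473-26508722 on the minus strand for Dusp1, chr1:134079156-134079405 on the minus strand for Btg2 and chr13:119690101-119690350 on the plus strand for Hmgcs1.
Dusp1: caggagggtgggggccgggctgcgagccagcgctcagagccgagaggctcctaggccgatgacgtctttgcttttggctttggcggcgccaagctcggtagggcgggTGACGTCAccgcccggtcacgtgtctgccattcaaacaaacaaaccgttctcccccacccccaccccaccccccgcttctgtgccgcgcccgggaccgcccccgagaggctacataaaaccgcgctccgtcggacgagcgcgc
Btg2: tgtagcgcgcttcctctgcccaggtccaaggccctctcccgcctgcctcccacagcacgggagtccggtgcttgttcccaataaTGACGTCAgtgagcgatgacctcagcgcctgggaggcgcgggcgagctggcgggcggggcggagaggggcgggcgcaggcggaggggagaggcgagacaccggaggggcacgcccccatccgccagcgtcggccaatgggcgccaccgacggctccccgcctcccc
Hmgcs1: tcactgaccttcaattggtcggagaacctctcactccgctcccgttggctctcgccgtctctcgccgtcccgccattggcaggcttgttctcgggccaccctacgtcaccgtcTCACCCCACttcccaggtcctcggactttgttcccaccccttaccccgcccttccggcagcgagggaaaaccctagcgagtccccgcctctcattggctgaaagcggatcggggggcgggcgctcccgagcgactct

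The capitals lie 143 to 136 bases before the start of Dusp1, 166 to 159 bases before that of Btg2 and 137 to 129 bases before that of Hmgcs1. The Dusp1 window is counted from the RefSeq start and lies inside the longer gene span given above, which comes from GENCODE. Searched on both strands, the cAMP response element was present in 3 of 24 immediate early genes with a window (12.5%), Maff being the third, and in 478 of all 27025 genes (1.77%). The AP-1 site TGANTCA was present in 2 of the 24 (8.33%) against 7.82% of all genes, and the CArG box of serum response factor in 3 of the 24 (12.5%) against 1.62%. The E-box CACGTG, not capitalised, was in 5 of the 24 (20.8%) against 6.86%, and the sterol element in 1 of 16 cholesterol synthesis genes (6.25%) against 1.22%. None of these 5 motifs was found in the windows of Jun or Fos. A match describes the letters of a window and not binding.

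Of the 8001 genes measured against the other low pigment cells, meaning a mean of at least 10 CPM over both groups, 145 (1.81%) were at least 1.5-fold higher in cluster 1 and 474 (5.92%) at least 1.5-fold lower. Against the high pigment cells, 561 of 7784 genes (7.21%) were at least 1.5-fold higher in cluster 1 and 309 (3.97%) at least 1.5-fold lower. The median log2 ratio of all measured genes was −0.01 and 0.03. Over all phases, more genes were thus lower than higher within the library, and more were higher than lower against the high pigment cells. Among G1-called cells of the library, with 30 comparison cells, the counts were 769 higher and 764 lower, and with the calls made anew 801 and 1048. Those 30 cells held 472048 UMIs in sum, with a detection limit of 6.36 CPM. Genes near the level minimum thus rest on few UMIs there and can pass 1.5-fold by counting error. The counts in G1-called cells therefore cannot be set beside those over all phases.

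Among the 12 genes with the largest ratios to the other low pigment cells were a histone gene and several transcription factors. Hist1h2bc, a histone H2B gene that also gives polyadenylated RNA, had 226 CPM in cluster 1, 85.3 CPM in the other low pigment cells and 213 CPM in the high pigment cells (ratio to the other low cells 2.65, 2.49–2.82). Zbtb1, a zinc finger transcriptional regulator, had 98.4, 40.5 and 82.7 CPM (2.43, 2.22–2.66). Sox4 and Kctd12 had ratios of 1.81 and 1.82. All 4 had nearly the same level in the high pigment cluster 3 cells of all phases as in cluster 1, with ratios to them between 0.915 and 1.19. Among cells called G1 only, 30 cells stand on the comparison side, mostly in clusters 0 and 3. There Hist1h2bc, Kctd12 and Sox4 were no longer higher in cluster 1 (ratios 0.924, 0.871 and 0.961), and Apold1 had 1.22.

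A smaller set stood above both other groups. Fosl2 (chromosome 5, 32135801 to 32157842), a member of the FOS family of AP-1 proteins, had 181 CPM in cluster 1 against 79.4 and 98.0 CPM (ratios 2.28, 2.14–2.44, and 1.85, 1.68–2.03). Apold1, an early response gene described in endothelium, had 102 against 44.8 and 50.5 CPM. Nr4a2 (chromosome 2, 57106830 to 57124003), an orphan nuclear receptor, had 359 against 184 and 116 CPM (1.95, 1.87–2.04, and 3.08, 2.84–3.35).

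Further genes stood above both groups when cells of all phases were summed. Klf4 (chromosome 4, 55527143 to 55532466), a Krüppel-like transcription factor, had 502 against 263 and 229 CPM (1.91 and 2.19). The RNA-binding protein gene Arid5a had 118 against 62.4 and 19.6 CPM (1.88 and 6.01). Rgs2, which dampens G protein signalling, had ratios of 1.75 and 2.71, the Notch target Hes1 1.54 and 4.07, and Nfkbia, the inhibitor of NF-kB, 1.59 and 2.65. Camk2n2 (1.70 and 1.49) and AY036118 (1.52 and 1.88), the latter lying in a ribosomal RNA region and therefore uncertain, complete the 10 genes with the largest smaller ratio. In G1-called cells Camk2n2 had a ratio to the other low pigment cells of 1.13, or 1.11 with the calls made anew, and Hes1 had 2.72 and 2.59. In G2M-called cells that of AY036118 was 0.981. Against G2M-called high pigment cells, with 527386 UMIs on the comparison side, Rgs2 had 7.93, Arid5a 9.09, Hes1 2.24 and AY036118 0.910.

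Cdkn1a (chromosome 17, 29090976 to 29100727), which encodes the cell cycle inhibitor p21 and is a target of p53, stood below both groups. It had 172 CPM in cluster 1, 314 CPM in the other low pigment cells and 335 CPM in the high pigment cells, 1.83-fold (1.74–1.91) and 1.95-fold (1.84–2.07) lower. The level was alike in the cluster 1 cells called G1, S and G2M, with 173, 162 and 183 CPM. It was also lower in cluster 1 among cells of one phase, 327 CPM in the S-called and 286 CPM in the G2M-called cells of cluster 2 and 354 CPM in the G1-called high pigment cells. Against the 54 G2M-called high pigment cells the ratio was 1.01. Of the p53 targets, 5 of 10 measured were lower and 0 higher than in the other low pigment cells, where 12.9% of all genes were lower, and the median log2 ratio was −0.28. Gdf15 had 10.7 against 25.2 CPM, Trp53inp1 72.4 against 104 CPM and Phlda3 170 against 221 CPM, while Btg2, also in that list, had 175 against 177 CPM. Against the high pigment cells 5 of 9 p53 targets were lower and 1, Btg2, higher (median −0.37), where 13% of all genes were lower. Against the G2M-called high pigment cells the median of the list was 0.29. The other genes lowest against both groups were Larp7, Lsm3, Gas2l3, Trp53inp1, Xpo1, Ndufaf2, Zc3h18, Mrpl14 and Phlda3, with ratios between 0.485 and 0.770.

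**Figure D2:**
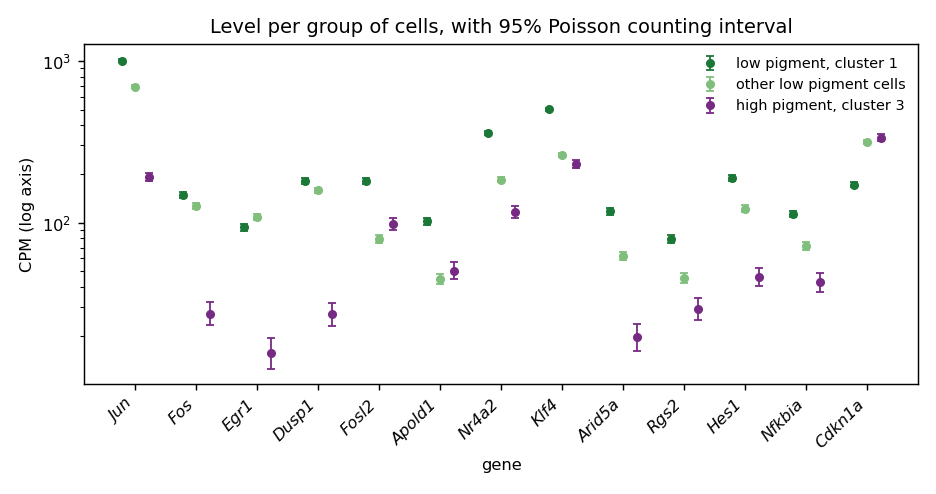
Level in CPM (log axis) of the 4 marker genes, of 8 genes above both comparison groups and of Cdkn1a, in low pigment cluster 1 cells, other low pigment cells and high pigment cluster 3 cells, with 95% Poisson counting intervals. Fos, Egr1 and Dusp1 lie close together in both low pigment groups and several-fold lower in the high pigment cells, while Fosl2 (181 against 79.4 and 98.0 CPM) and Klf4 stand above both and Cdkn1a below both.

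The immediate early genes as a list were somewhat higher in cluster 1 than in the rest of its library and far higher than in the high pigment cells. Of 32 listed genes 28 passed the level minimum, and Fosl1 and Arc had 0 UMIs in cluster 1. Against the other low pigment cells 13 of 28 were higher and 0 lower, where 7.86% of all genes were higher at this limit, and the median log2 ratio was 0.25. Besides Nr4a2 and Klf4, the higher members included the proto-oncogene Myc (25.2 against 13.9 CPM), the secreted matrix protein gene Ccn1 (56.0 against 33.0 CPM), Ier3 (180 against 115 CPM) and Csrnp1 (42.0 against 26.4 CPM). Fosb, Nr4a1, Btg2, Zfp36 and Ier2 were near equal, with ratios of 1.10, 0.933, 0.990, 1.07 and 0.956.

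Against the high pigment cells 24 of the 28 were higher, where 19.3% of all genes were, and the median log2 ratio was 1.48. Btg2 (chromosome 1, 134075170 to 134079120), an antiproliferative factor that promotes RNA decay, had 175 against 20.5 CPM, a ratio of 8.56 (7.07–10.5). Its place as the largest ratio held against cluster 3, since against all high pigment cells Btg2 had 5.65, Sik1 6.95 and Nr4a2 5.83. Fosb had 120 against 18.1 CPM (6.66, 5.43–8.26), Ier5 105 against 24.2 CPM and the kinase gene Sik1 143 CPM at a ratio of 4.08. Klf6 was the only lower member, with 105 against 141 CPM (1.35-fold, 1.23–1.47), and Myc, Srf and Zfp36l1 had ratios of 0.972, 0.996 and 1.04. The members that set cluster 1 apart from high pigment cluster 3 most, Btg2, Fosb and Dusp1, were thus not those with the largest ratios inside the low pigment library, Nr4a2, Klf4 and Myc.

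Regulators around this list followed in part, but the lists overlap. Fosb is also in the AP-1 list and the marker Dusp1 in the MAP kinase feedback list, so their counts are not independent of those above. At the list limit, 7.86% of all genes were higher and 12.9% lower within the library, and 19.3% higher and 13% lower against the high pigment cells. Of the AP-1 family, 5 of 14 measured members were higher and 0 lower than in the other low pigment cells (median log2 0.19), and 10 of 15 were higher and 1 lower than in the high pigment cells (median 0.75). The lower one was Maf, with 12.6 against 21.8 CPM, which was 1.81-fold higher than in the other low pigment cells. Among MAP kinase feedback genes 6 of 13 were higher than in the other low cells, led by the inhibitor Spry2 (41.7 against 22.8 CPM) and the phosphatase gene Dusp10 (21.8 against 13.2 CPM). Neither of those exceeded the high pigment level, at 47.3 and 23.7 CPM, and there 5 of 12 members were higher and 1, Dusp6, lower (27.0 against 45.1 CPM). Cytokine and NF-kB feedback genes had 7 of 15 higher and 1 lower within the library and 8 of 15 higher and 2 lower across libraries. The median of that list within the library, 0.20 over all phases, was −0.15 in G1-called cells and −0.22 with the calls made anew. Socs3, a cytokine signalling inhibitor, had 23.7 against 15.0 and 2.98 CPM, and Cflar, an apoptosis inhibitor, 65.9 against 44.6 and 174 CPM.

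**Figure D3:**
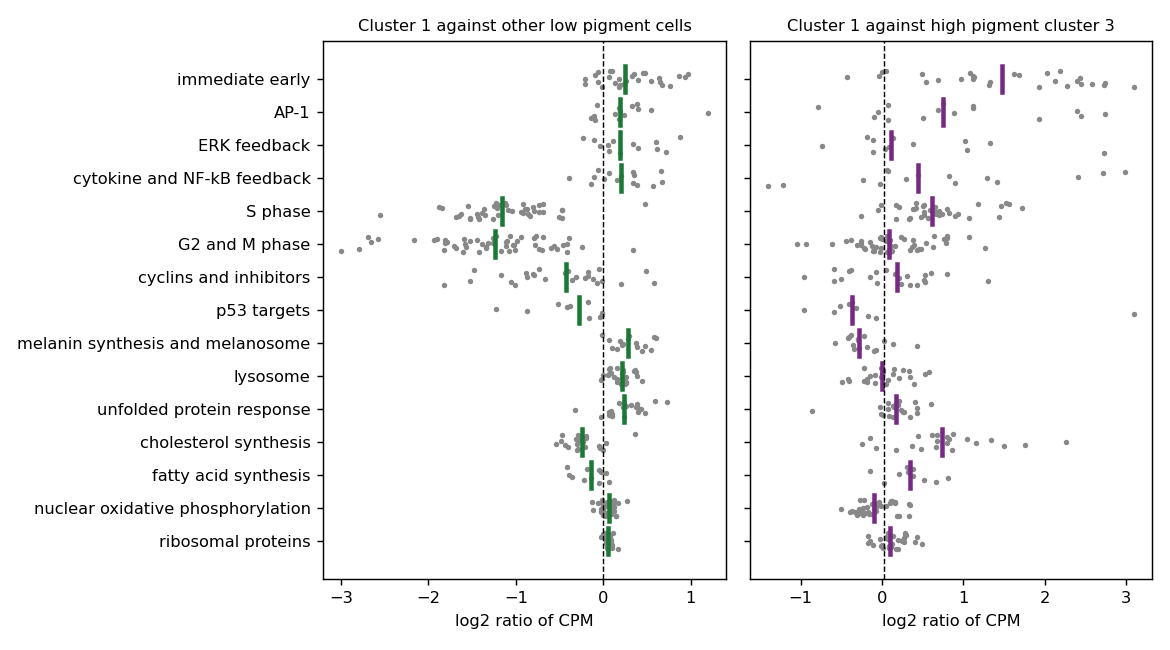
Log2 ratio of CPM for each measured member (points) of 15 gene lists, with the list median (thick bar) and the median of all measured genes (dashed line), for cluster 1 against the other low pigment cells (left) and against high pigment cluster 3 (right). The S phase and the G2 and M phase lists lie far below the dashed line on the left (medians −1.16 and −1.24), and the immediate early and cholesterol synthesis lists above it on the right (1.48 and 0.74).

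The cell cycle genes gave the largest differences inside the low pigment library, as the phase calls, which use such genes, already set. Of 44 S phase genes 43 were lower in cluster 1, where 12.9% of all genes were at that limit, and the median log2 ratio was −1.16. Of 54 G2 and M phase genes 52 were lower, with a median of −1.24. Top2a, the topoisomerase that untangles replicated chromosomes, had 66.2 against 428 CPM, 6.47-fold lower (6.06–6.92), and the proliferation marker Mki67 57.1 against 256 CPM. The replication histone genes Hist1h2ae and Hist1h1e were 5.86-fold and 5.77-fold lower. In G1-called cells the ratios of Top2a, Mki67 and Hist1h2ae were 0.409, 0.756 and 0.807, and the S phase median was −0.21. With the G1 calls made anew that median was −0.61. The exceptions were Ung, a DNA repair glycosylase of the late G1 and S phase, with 15.9 against 11.5 CPM (1.39, 1.14–1.68), and Ccnb2, a mitotic cyclin, with 56.6 against 44.8 CPM (1.26, 1.15–1.39).

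The cyclins differed in direction, also within the mitotic ones. Of 26 measured cyclins and inhibitors 2 were higher and 15 lower than in the other low pigment cells, where 7.86% of all genes were higher and 12.9% lower. Ccnd2, a D-type cyclin of G1, had 340 CPM in cluster 1, 228 CPM in the other low cells and 356 CPM in the high pigment cells. Ccne1, a cyclin of S phase entry, had 44.7, 92.8 and 18.1 CPM. The mitotic cyclins Ccna2 and Ccnb1 were 0.282 and 0.495 times the level of the other low pigment cells, while Ccnb2, given above, was higher. Cluster 1 therefore had a Ccnd2 level like that of the high pigment cluster 3 cells, and a Ccne1 level between both groups.

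Against the high pigment cells, S phase genes were higher in cluster 1, where 32 of 38 measured members were higher and 0 lower, at a median of 0.61 on the log2 scale, where 19.3% of all genes were higher and 13% lower. Against all high pigment cells that median was −0.34. Cluster 3 held 3 S-called cells and cluster 1 held 193. In G1-called cells alone 11 of 32 S phase genes were higher and 1 lower (median 0.14), where 19.1% of all genes were higher and 13.1% lower. The initiation factor gene Cdc6 then had a ratio of 2.18 in place of 4.21 and Pcna 1.30 in place of 1.51. The G2 and M phase genes had a median of 0.08 in all cells, with 16 of 50 higher and 5 lower, −0.97 against all high pigment cells, and −0.06 in G1-called cells, with 5 of 40 higher and 10 lower.

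The S-called and G2M-called cells of cluster 1 were also set beside cells of the same call in cluster 2, a comparison added after the values were seen. The 193 S-called cells of cluster 1 had lower S phase genes than the 490 S-called cells of cluster 2, 28 of 44 being lower and 1 higher (median log2 −0.44), where 13.6% of all genes were lower. Their G2 and M phase genes were lower in 46 of 51 cases, with a median of −0.93. Ung was the higher S phase gene (42.2 against 17.5 CPM, ratio 2.40), while Cdc6 and Mcm6 had ratios of 0.768 and 0.812 and Rad51ap1 of 0.618. Immediate early genes were higher in 13 of 28 and lower in 0, where 9.31% of all genes were higher, with the same median of 0.25 as over all phases.

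The 111 G2M-called cells of cluster 1, set beside 329 of cluster 2, also had lower cycle genes. S phase genes were lower in 31 of 40 (median −0.70), where 13.9% of all genes were lower. G2 and M phase genes were lower in 24 of 55 and higher in 4 (median −0.27), where 8.83% of all genes were higher. The higher ones were Ccnb2 (1.57), Cdc20 (1.47), Cenpa (1.31) and, just past the limit, Ube2c. Top2a, Mki67 and Kif11 had ratios of 0.414, 0.528 and 0.472 in the same cells. Immediate early genes were higher in 9 of 28 and lower in 1 (median 0.17), with the same shares of all genes. Of 14 measured AP-1 genes 3 were higher and 2 lower.

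**Figure D4:**
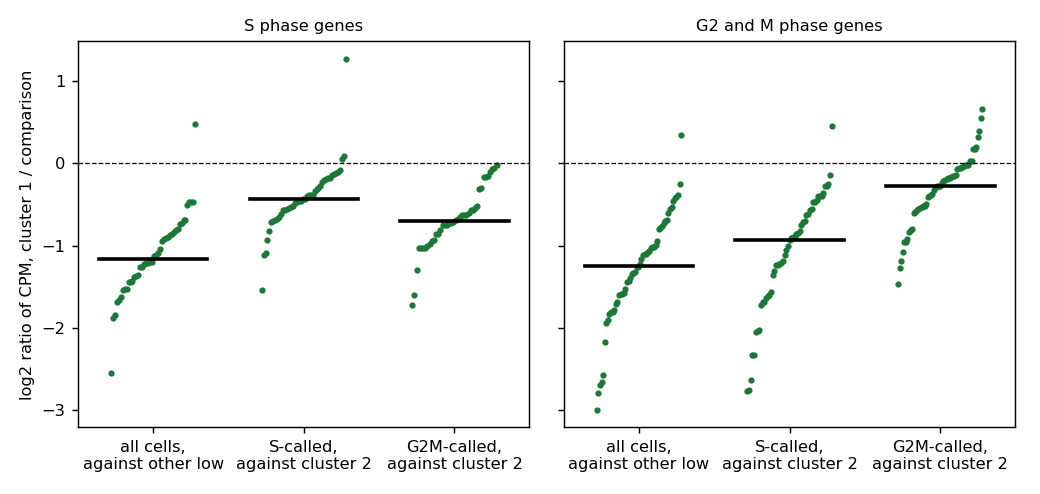
Log2 ratio of CPM for each measured S phase gene (left) and G2 and M phase gene (right), sorted by value, for all cluster 1 cells against the other low pigment cells and for S-called and G2M-called cluster 1 cells against cluster 2 cells of the same call. Thick lines are medians. The S phase median goes from −1.16 in all cells to −0.44 in S-called cells, and the G2 and M phase median from −1.24 to −0.27 in G2M-called cells.

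Fosl2, Nr4a2, Klf4 and Jun, named above for their ratios over all phases or as a marker, had much the same ratio to cluster 2 within the S and G2M calls. Their ratios to cluster 2 were 2.22, 1.96, 1.88 and 1.46 in S-called cells and 1.95, 1.85, 1.65 and 1.33 in G2M-called cells. In G1-called cells against G1-called high pigment cells they were 1.93, 3.42, 2.47 and 5.59. Against the 54 G2M-called high pigment cells Nr4a2 had 1.77 and Klf4 1.30, both lower than among G1-called cells. Across the phases inside cluster 1 the levels differed little, Jun having 1024 CPM in G1-called, 904 CPM in S-called and 1063 CPM in G2M-called cells. Fos had 146, 158 and 148 CPM, Dusp1 175, 186 and 201 CPM, and Egr1 85.0, 117 and 99.96 CPM in these cells, so that Egr1 was lowest in the G1-called ones. Of the 28 immediate early genes, 0 were higher and 1 lower in G1-called than in S-called cluster 1 cells, where 8.89% and 9.93% of all genes were. Against G2M-called cells 7 were higher and 0 lower, where 11.1% and 14.9% of all genes were.

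Melanin genes lay between the other low pigment cells and the high pigment cells. Of 16 measured genes of melanin synthesis and melanosome structure, 7 were higher and 0 lower in cluster 1 than in the other low pigment cells (median log2 0.29), where 7.86% of all genes were higher and 12.9% lower. In G1-called cells that median was 0.13 with 30 comparison cells, and −0.04 with the calls made anew and 26 comparison cells. Against cluster 2 cells of the same call it was 0.25 in S-called and 0.11 in G2M-called cells. Trpm1, a cation channel of melanocytes, had 144, 94.5 and 192 CPM in cluster 1, the other low and the high pigment cells, and the melanosome tetraspanin Tspan10 had 105, 70.2 and 139 CPM. Dct, which converts dopachrome, had 6180, 5559 and 7841 CPM, and Tyr, the first enzyme of melanin synthesis, 139, 113 and 162 CPM. Against the high pigment cells 6 of 16 were lower and 1 higher (median −0.29), where 13% of all genes were lower and 19.3% higher. The higher gene was Mc1r, the melanocortin receptor, with 46.6 CPM in cluster 1 against 33.4 and 34.6 CPM, and Pmel, which builds melanosome fibrils, had 1551, 1324 and 1411 CPM.

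Among the lineage factors Mitf (chromosome 6, 97807052 to 98021349), the central regulator of melanocytes, had 249 CPM in cluster 1, 196 CPM in the other low cells and 667 CPM in the high pigment cells. It was 1.27-fold higher (1.22–1.33) than in the first and 2.68-fold lower (2.56–2.80) than in the second. Sox10, the neural crest factor upstream of it, was near equal to the other low cells (124 against 113 CPM) and 1.57-fold lower than in the high pigment cells (195 CPM). Tfap2a had 44.0, 31.9 and 65.9 CPM and Pax3 297, 314 and 261 CPM. Of 10 measured lineage factors 2 were higher and 0 lower within the library, where 7.86% of all genes were higher and 12.9% lower. Of 9 measured across libraries 1 was higher and 3 lower, where 19.3% of all genes were higher and 13% lower. Ppargc1a, a coactivator of mitochondrial biogenesis, had the same order as Mitf, with 114, 89.2 and 293 CPM.

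Cholesterol synthesis genes were slightly lower than in the rest of the library when cells of all phases were summed, and higher than in the high pigment cells. Of 23 measured genes 1 was higher and 5 lower than in the other low pigment cells (median log2 −0.25), where 7.86% of all genes were higher and 12.9% lower. Of 22 measured, 18 were higher and 0 lower than in the high pigment cells (median 0.74), where 19.3% of all genes were higher and 13% lower. Hmgcs1 (chromosome 13, 119690379 to 119708260) had 129, 174 and 38.4 CPM, ratios of 0.740 (0.699–0.784) and 3.36 (2.91–3.90). The sterol oxidase gene Msmo1 had 223, 265 and 88.3 CPM. Between the G1-called cells of cluster 1 and the 30 other low pigment cells called G1, the median turned to 0.51. With the calls made anew it was 0.45. All but 3 of those 30 cells were in clusters 0 and 3, where most high pigment cells lay. Tm7sf2 was the gene higher within the library, with 11.4 against 8.92 CPM. Set beside G2M-called cells of cluster 2, the G2M-called cells of cluster 1 had 16 of 23 of these genes lower and 0 higher, where 13.9% of all genes were lower. Of fatty acid synthesis genes 3 of 11 were lower within the library and 5 of 10 higher across libraries, with the shares of all genes as for the cholesterol list. Their median within the library went from −0.14 to 0.43 in G1-called cells and to 0.20 with the calls made anew.

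Genes of protein folding and breakdown were higher in part. Of 21 unfolded protein response genes 8 were higher and 1 lower than in the other low pigment cells (median log2 0.23), where 7.86% of all genes were higher and 12.9% lower. The chaperone gene Hspa5 had 1290, 983 and 962 CPM, the disulfide isomerase gene Pdia6 400, 306 and 264 CPM and the transcription factor gene Xbp1 57.4 CPM in cluster 1, at ratios of 1.51 and 1.16. The lower gene, Herpud1, had 122 against 153 CPM. Of 27 lysosome genes 5 were higher and 0 lower within the library (median 0.21), with a median of −0.04 in G2M-called cells. Across libraries 5 lysosome genes were higher and 3 lower (median 0.00), shares close to the 19.3% and 13% of all genes. Ribosomal protein genes (0 of 32 called, median 0.06) and nuclear oxidative phosphorylation genes (0 of 39 called, median 0.07) showed little difference within the library.

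Of the genes with small ratios to the high pigment cells, Trim63, Lgals3 and Hmox1 were low in both groups of low pigment cells. Trim63, a muscle ubiquitin ligase gene, had 25.1 against 88.1 CPM, 3.51-fold lower (3.06–4.03). Lgals3, which encodes galectin-3, had 301 against 827 CPM and the heme oxygenase gene Hmox1 138 against 336 CPM. The other low pigment cells had 17.2, 301 and 120 CPM of these genes. Against G2M-called high pigment cells Trim63 and Lgals3 had ratios of 0.439 and 1.18. Slc5a3, a myo-inositol transporter gene, was among the highest, with 171 CPM in cluster 1, 119 CPM in the other low cells and 44.7 CPM in the high pigment cells.

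Cell by cell, the groups overlapped in each list. The immediate early list took a median of 0.467% of a thinned cluster 1 cell's UMIs, 0.347% in the other low pigment cells and 0.160% in the high pigment cells. Of the cluster 1 cells, 79.0% (76.4–81.4) lay above the median of the other low cells and 98.0% (97.0–98.8) above that of the high pigment cells. The G2M-called cluster 1 cells had the widest spread of the 3 phases in this list, from 0.0667% at the 5th percentile to 0.773% at the 95th, against 0.253% to 0.747% in the G1-called cells, and 5 of these 111 cells had a UMI of none of the 4 markers, against 1 of 719 G1-called cells.

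For the melanin list the medians were 1.56%, 1.39% and 1.99%, and 62.4% (59.3–65.3) of cluster 1 cells lay above the median of the other low cells and 23.9% (21.3–26.6) above that of the high pigment cells. Cluster 1 cells thus ranged across the melanin levels of both other groups. The S phase list had medians of 0.200%, 0.493% and 0.147%, and the cholesterol list 0.187%, 0.213% and 0.107%.

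**Figure D5:**
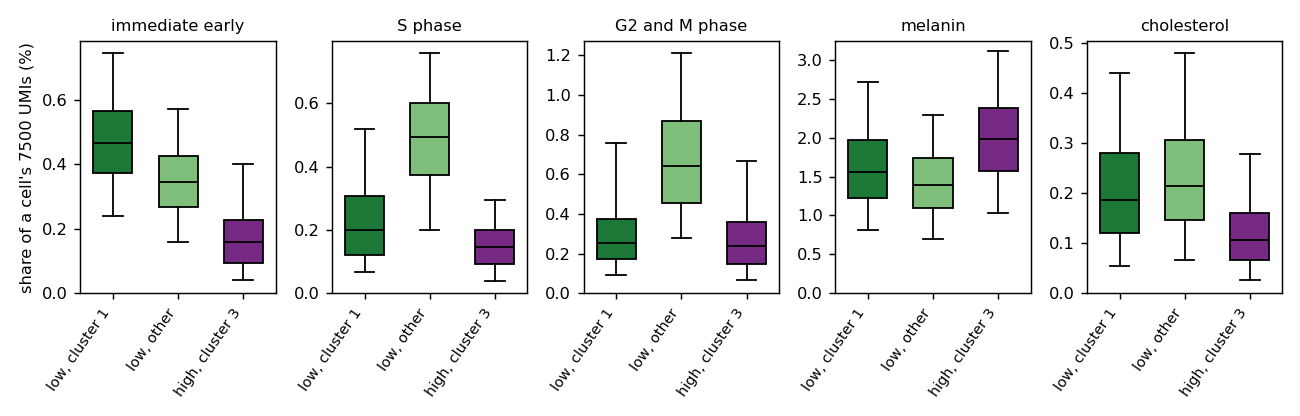
Share of a cell's 7500 thinned UMIs (y axis, percent, starting at 0) from 5 gene lists in low pigment cluster 1, other low pigment and high pigment cluster 3 cells. Boxes show the quartiles and median over cells and whiskers the 5th and 95th percentiles. The immediate early boxes step down from 0.467% to 0.347% and 0.160%, while the melanin box of cluster 1 (1.56%) lies between the other two.

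The authors' deposited scores per cell were made from gene sets that no source used here gives. The score labelled hMel ProState had a median of 0.459 in cluster 1, 0.541 in the other low pigment cells and 0.438 in the high pigment cells. Its quartiles were 0.420 to 0.489, 0.522 to 0.558 and 0.404 to 0.467 in that order. The quartile ranges of cluster 1 and the other low pigment cells thus did not overlap. The score labelled hMel MatState had medians of 0.670, 0.657 and 0.674. The score labelled mHFmel StemState was highest in cluster 1, with medians of 0.164 against 0.128 and 0.109. Its quartiles were 0.139 to 0.191, 0.103 to 0.152 and 0.0845 to 0.140.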

How the data were processed

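Low and high pigment B16 F10 cells gave 1 droplet library each. The authors deposited a matrix of UMI counts for 5818 barcodes and 32285 genes, for which the submitters' processing notes name Cell Ranger 6.1.2 and mm10, and a cell table with 4036 cells. Per the file headers, that deposited table gives UMI counts per cell, the percent of UMIs from mitochondrial and ribosomal protein genes, gene set scores, a phase and a cluster number per cell. Whether aggregation equalised the depth of the libraries, the clustering settings and the treatment of reads matching several genes are not stated there, so close gene copies such as histone genes are uncertain.

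Counts were summed over the cells of a group and divided by the group's total UMIs. Where intervals are printed, ratios have exact conditional binomial 95% intervals, CPM exact Poisson ones and shares exact Clopper-Pearson ones. A gene was measured at a mean of at least 10 CPM over both groups, in which the smallest sum was 38 UMIs in the first and 11 UMIs in the second comparison. Genes were counted at 1.5-fold and list members at 0.32 on the log2 scale, by size alone. No significance test was made.

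The members, the gene lists and the rules were chosen with earlier results of these data known. The lists hold 863 entries for 818 genes, of which 817 were found, and some genes stand in several lists. Named were the 4 markers, the 12 largest and 12 smallest ratios in each comparison and the 10 genes highest above or below both groups at a mean of at least 50 CPM, and, of each list, at most 3 of the largest and 2 of the smallest ratios. The main lists could be given in full. Comparisons with cluster 2 by phase were added after the values were seen. Gene positions are from GENCODE on build GRCm38, and promoters from RefSeq.

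Cells were thinned without replacement to 7500 UMIs (no cell of the table was shallower), and phases were called with scanpy 1.11.5. The Scrublet function of scanpy (expected rate 0.06) marked 7 cluster 1 cells (0.684%), 11 other low pigment cells (1.25%) and 2 high pigment cluster 3 cells (0.382%) as doublets, which were kept. The interval calculation was tested on simulated data. Alternatives changed the level minimum, the scaling, the weight of cells, the phases, doublets, thinning, the comparison cells and the fold limit.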

Additional observations from a re-analysis of the deposited data

How the results depend on the processing

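No paired analysis was possible because there is 1 library per sort and no test. Counts of genes at least 1.5-fold higher than in the other low pigment cells went from 145 to 344 with a minimum of 2 CPM and to 37 with 50 CPM, and counts of lower genes from 474 to 786 and 134. Against the high pigment cells 561 higher genes became 1329 and 113, and 309 lower genes 680 and 84. Among cells the authors call G1, with 30 comparison cells, the counts within the library were 769 and 764, and among cells called G1 anew 801 and 1048. Among G2M-called cells the counts against the high pigment cells were 1048 higher and 905 lower. The comparison sides of these phase counts were small, with 472048 UMIs for the authors' G1 calls and 527386 UMIs for the G2M calls. Counting error alone can therefore raise them. The immediate early count within the library was 7 in place of 13 at a list limit of 1.5-fold. The other 62 values of these counts lay within 1.5 times.

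These ratios of named genes to the other low pigment cells changed direction. In G1-called cells they were 1.91 for Egr1, 0.924 for Hist1h2bc, 0.871 for Kctd12, 0.961 for Sox4, 1.02 for Spc25, 1.05 for Larp7, 1.16 for Ndufaf2, 1.04 for Zc3h18 and 1.08 for Mrpl14. With the G1 calls made anew they were 1.595 for Egr1, 0.848 for Hist1h2bc, 0.880 for Kctd12, 0.886 for Sox4, 1.02 for Larp7, 1.05 for Ndufaf2, 1.14 for Zc3h18 and 1.13 for Mrpl14. In G2M-called cells AY036118 had 0.981, Xpo1 1.06 and Egr1 1.05, or 0.969, 1.06 and 1.05 against cluster 2 alone. Against G2M-called high pigment cells the ratios were 1.18 for Lgals3, 0.910 for AY036118, 1.01 for Cdkn1a, 1.68 for Trp53inp1, 1.34 for Mrpl14 and 1.14 for Phlda3, and the p53 target median was 0.29. Against all high pigment cells the S phase median was −0.34. The comparison sides by phase held fewer cells, and the G1-called one within the library lay mostly in clusters 0 and 3. The cause of these changes was not tested. S-called cells could not be set against the 3 S-called cells of high pigment cluster 3, under the minimum of 20. Of 1050 alternative values of 84 gene ratios, 104 moved by over 1.5 times, 8 of them against all high pigment cells and the others in the comparisons by phase.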
